A study of Caenorhabditis elegans with 2 samples.

Results

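Of the 4835 EFL-1 peaks in the set thresholded by the irreproducible discovery rate (the IDR set), 450 (9.31%) lay on the X chromosome. Membership was decided by the chromosome of the peak alone, on the genome build ce11. The remaining 4385 peaks lay on the 5 autosomes and served for comparison. EFL-1 binding was mapped by chromatin immunoprecipitation and sequencing (ChIP-seq) with an EFL-1 antibody in C. elegans hermaphrodites of N2, the wild-type reference strain. Whole L1 larvae, the first larval stage, were grown at 26 °C and processed as 2 biological replicates from separate biosamples, so tissues were not separated. Both replicates belong to 1 group and no other genotype, treatment or stage was assayed. Read depth is unknown from the lists. The intervals given here are 95% intervals and cover counting error only.

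EFL-1 is a worm E2F transcription factor. With its partner DPL-1, a retinoblastoma-like pocket protein and the MuvB core it forms the DREAM complex, which represses cell cycle and germline genes in somatic cells. E2F factors bind GC-rich sites such as TTCCCGC, and a MuvB subunit binds the CHR element (TTCGAA or TTTGAA). The X chromosome of C. elegans differs from the autosomes in gene content, with few genes of the germline and of basic cell growth, few operons and many tRNA genes. In hermaphrodites a condensin-like dosage compensation complex binds both X chromosomes and lowers their expression. It is first recruited at dedicated sites on X that share a motif with the core GCGCAGGG. Among the genes that control this choice are the X-linked genes sdc-1, sdc-2, ceh-39 and xol-1.

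Strong X peaks were of both kinds, at gene starts and far from them. Sequences around the summits of 10 X peaks are shown as examples. All are read from the RefSeq sequence of WBcel235 (ce11) on the plus strand. The first set shows 3 promoter peaks, at the kinesin gene klp-13, the highest-scoring promoter peak on X, and at ceh-39 and sdc-1. The last 2 ranked only 69 and 86 among the X peaks by score. All 3 hold the E2F consensus, which most X promoter peaks lacked (31 of 189 held it, 16.4%). Capitals mark the E2F consensus (TTCCCGC or TTCGCGC or TTGCCGC or TTGGCGC, in either orientation).
klp-13, chrX:5984729-5984842: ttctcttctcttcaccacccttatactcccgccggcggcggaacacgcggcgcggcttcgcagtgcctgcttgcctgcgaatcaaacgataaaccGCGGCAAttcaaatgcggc
ceh-39, chrX:1856266-1856403: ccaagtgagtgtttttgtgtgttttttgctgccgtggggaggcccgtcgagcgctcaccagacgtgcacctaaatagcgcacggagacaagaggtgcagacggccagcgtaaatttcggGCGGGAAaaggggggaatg
sdc-1, chrX:16275437-16275554: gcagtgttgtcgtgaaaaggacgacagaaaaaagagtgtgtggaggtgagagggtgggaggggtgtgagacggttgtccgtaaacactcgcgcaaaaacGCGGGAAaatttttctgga

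The second set shows 6 peaks outside promoter windows with the recruitment motif core, which is in capitals in either orientation (GCGCAGGG or CCCTGCGC). They were the 6 highest-scoring members that held it. The sequences near W02H3.3, near F20B6.9 and in mom-1 also hold the E2F consensus, which is not marked in this set. Near W02H3.3 and in mom-1 it overlaps a copy of the core and shares its letters, and only near F20B6.9 is it separate.
near W02H3.3, chrX:11094113-11094245: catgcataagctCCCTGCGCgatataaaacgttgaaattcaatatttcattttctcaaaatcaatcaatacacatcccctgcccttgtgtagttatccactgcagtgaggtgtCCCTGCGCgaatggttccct
near F20B6.9, chrX:4209216-4209306: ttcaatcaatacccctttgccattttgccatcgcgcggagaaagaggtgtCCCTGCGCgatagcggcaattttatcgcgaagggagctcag
near nspc-17, chrX:14525872-14525962: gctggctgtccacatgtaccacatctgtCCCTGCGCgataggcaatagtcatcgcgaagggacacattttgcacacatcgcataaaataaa
near xol-1, chrX:8036367-8036457: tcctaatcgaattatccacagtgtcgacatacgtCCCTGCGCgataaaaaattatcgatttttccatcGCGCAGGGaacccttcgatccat
near gtr-1, chrX:806646-806769: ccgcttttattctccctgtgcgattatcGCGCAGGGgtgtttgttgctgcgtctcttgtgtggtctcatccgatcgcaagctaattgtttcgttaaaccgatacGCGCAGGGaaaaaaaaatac
in mom-1, chrX:6296533-6296623: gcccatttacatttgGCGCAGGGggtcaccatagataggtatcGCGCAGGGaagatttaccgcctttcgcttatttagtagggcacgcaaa

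The highest-scoring X peak of all, near the autophagy gene atg-2, held neither motif, so no base is in capitals.
near atg-2, chrX:6805008-6805128: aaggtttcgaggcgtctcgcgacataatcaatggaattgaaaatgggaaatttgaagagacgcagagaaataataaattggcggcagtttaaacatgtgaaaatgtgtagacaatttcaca

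X was the chromosome with the fewest peaks for its length. It carried 25.397 peaks per megabase, against 53.1 on the autosomes together and between 35.4 on V and 70.9 on III. The ratio of X to autosomes was 0.478 (exact interval 0.433 to 0.527). Gene density is also lowest on X, at 154 protein-coding genes per megabase against 209. Per 100 genes X had 16.5 peaks, a value inside the range of single autosomes, since V had 14.8. The ratio per gene was 0.648 (exact interval 0.587 to 0.714).

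A protein-coding gene was called bound when its promoter window, from 500 bp before to 200 bp after the annotated start, held a summit. On X 208 of 2731 genes (7.62%) were bound. Over all chromosomes the share was 15.2% of 19973 genes, and on single autosomes it ran from 10.3% on V to 23.8% on I. X minus autosomes gave -8.73 percentage points (Newcombe interval -9.82 to -7.55). The 208 genes were served by 189 peaks, of which 170 lay in the window of 1 gene and 19 in those of 2. Bound X genes were longer than unbound X genes, with medians of 3266.5 and 2446 bp, and the autosomal medians were 2310 and 1914 bp.

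Summits were put in classes by their position. A summit in a promoter window was called a promoter summit, and the others were exonic, intronic or, outside all protein-coding genes, intergenic. On X 189 (42%) were promoter summits, 4 (0.889%) exonic, 72 (16%) intronic and 185 (41.1%) intergenic. The intergenic share lay above that of every autosome (25.5% to 29.3%) and the promoter share below it (45.8% to 55.1%). X minus autosomes was 13.9 percentage points for intergenic summits (interval 9.28 to 18.7), -8.44 for promoter summits (-13.2 to -3.60) and -2.08 for exonic summits (-2.84 to -0.63). For introns it was -3.41 points and its interval reached from -6.73 to 0.44, so the call was not made. It was made in the whole relaxed list (-6.30), without replicate 1 (-4.42, interval -7.59 to -0.73), without replicate 2 (-4.14, -7.43 to -0.33) and without summits near tRNA genes (-5.10). Without summits near tRNA genes the promoter difference was -4.08 points and its interval reached 0.

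The kind of sequence available differs between X and autosomes, and density within each class did not single out intergenic sequence. Intergenic sequence makes up 37.8% of X and 28.2% of the autosomes, and promoter windows 10.5% and 13.6%. Per megabase of intergenic sequence X had 27.6 summits and the autosomes 51.1, a ratio of 0.540 (exact interval 0.460 to 0.631). In promoter windows the ratio was 0.516 (0.443 to 0.599), in introns 0.428 (0.332 to 0.545) and in exons 0.169 (0.0453 to 0.442). Every class was thus sparser on X than on the pooled autosomes, with overlapping intervals for promoters, introns and intergenic sequence. Single autosomes ran from 29.6 intergenic summits per megabase of that class on V, close to X, to 77.6 on III. In promoter windows they ran from 123 on V to 289 on I, against 102 on X.

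**Figure D1:**
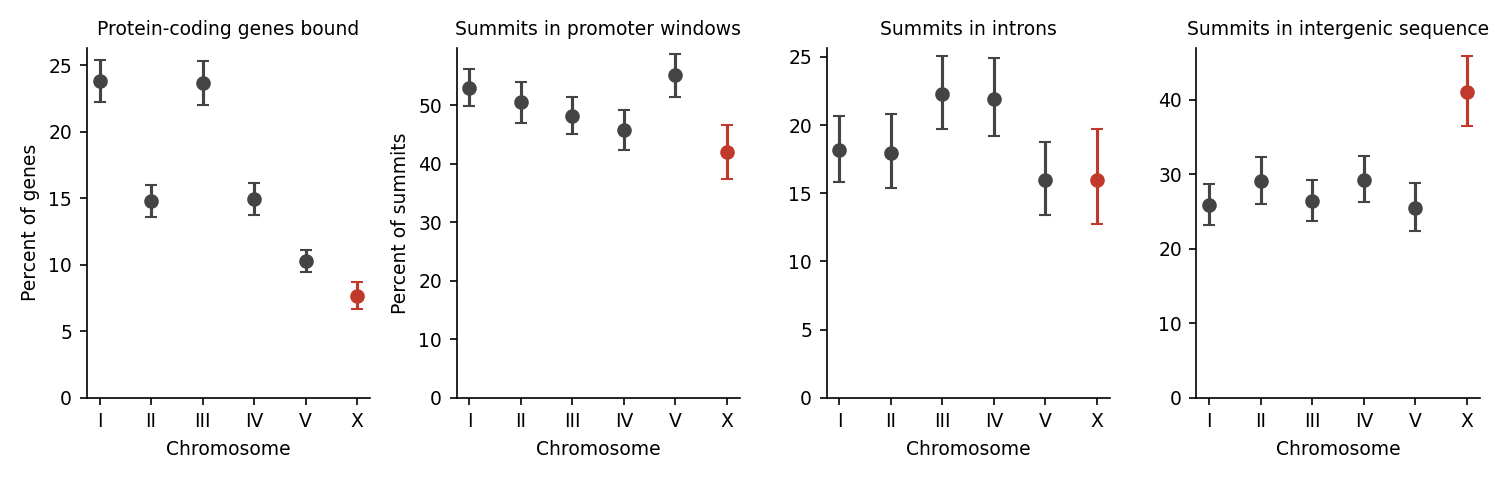
Percent of protein-coding genes bound (first panel) and percent of each chromosome's summits in promoter windows, introns and intergenic sequence (other panels), with exact 95% intervals; X is red. X has the lowest share of bound genes (7.62%) and the highest share of intergenic summits (41.1%).

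Divergent gene pairs contributed little on X. Only 18 of 189 X promoter peaks (9.52%) lay in windows of genes on both strands, against 614 of 2212 (27.8%) on the autosomes, a difference of -18.2 percentage points (interval -22.1 to -12.9). Windows of opposite strands also overlap less on X, where 1.88% of window sequence is shared by both strands, against 6.73% on the autosomes. Position within the window was alike, with 92.1% of X promoter summits and 92.2% of autosomal ones upstream of the nearest start (difference -0.12 points, interval -4.97 to 3.18). The X summits lay slightly further out, with a median of -178 bp against -161.5 to -147 bp on single autosomes (negative values are upstream). Far from genes, 127 X summits (28.2%) were over 2000 bp from any start, against 22.2% of autosomal summits (difference 6.01 points, interval 1.86 to 10.5).

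X peaks were weak as a group. Each peak carries the authors' peak score, whose scale is not stated, so scores only rank peaks within 1 list. X peaks had a median score of 133 (quartiles 83.8 and 235.08), below the medians of all single autosomes (170 to 203). The highest X peak scored 1805 and ranked 307 of 4835, whereas the highest peaks of single autosomes scored from 8705 to 15978. None of the 100 highest peaks (exact upper limit 3.62%), 5 of the first 500 (1%) and 31 of the first 1000 (3.1%) lay on X. In ranks 3501 to 4000 X held 72 of 500 (14.4%). Both replicates had the same course: the first X peak ranked 303 in replicate 1 and 306 in replicate 2, and X held 7 and 4 of their first 500. Scores were compared with no test, since peaks are not replicates.

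**Figure D2:**
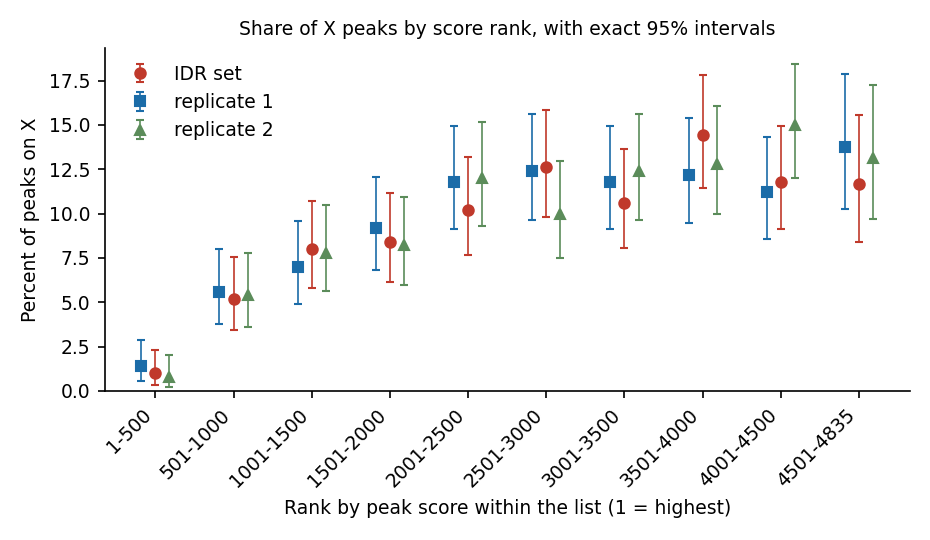
Percent of peaks on X in successive blocks of score rank (rank 1 is the highest score), for the IDR set and for the top 4835 peaks of each replicate list, with exact 95% intervals. The share climbs from 1% in the first block of the IDR set to 14.4% in ranks 3501 to 4000.

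The gap in score was widest in promoters. Promoter peaks had a median score of 154 on X and 313 on the autosomes, where single chromosomes ran from 280 to 351. Intronic peaks had 93.4 and 132, with single autosomes from 118 to 142. Intergenic peaks had 118 and 131, and the X value fell within the range of single autosomes (112 to 150.0). On X 4 of the 10 highest peaks were promoter peaks and 6 were intergenic. At the lower end, the last 3 X members scored 60.2, 60.1 and 59.7, and the first 3 X peaks left out of the set scored 59.5, 59.5 and 59.4.

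**Figure D3:**
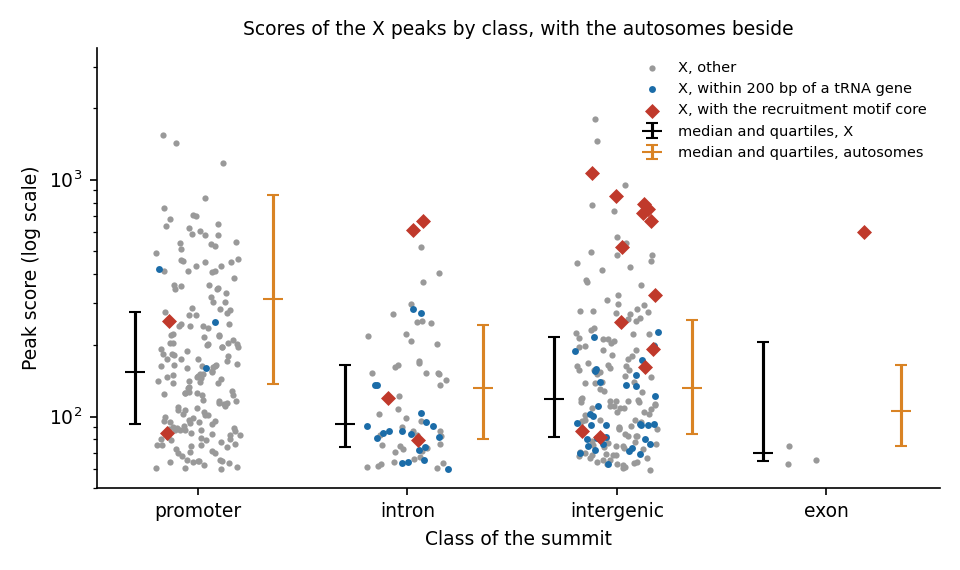
Score of each X peak (log scale) by class, with peaks near tRNA genes in blue and peaks with the recruitment motif core as red diamonds; bars give the median and quartiles on X (black) and on the autosomes (orange). X promoter peaks lie lower than autosomal ones (medians 154 and 313), whereas intergenic medians are close (118 and 131).

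The strongest X promoter peaks lay at klp-13, puf-9 and rpl-11.2. At klp-13 the peak scored 1538, with 450.4 in replicate 1 and 1084 in replicate 2, and its summit lay at -215 bp. The peak at puf-9, encoding a Pumilio-family RNA-binding protein, scored 1421 (507 and 907 in replicates 1 and 2). At rpl-11.2, a gene of the large ribosomal subunit, it scored 1171 (425 and 748). All 3 stood above the next promoter peak, at serp-1.1 (834), and were the 3 highest promoter peaks in each replicate. Then came the zinc finger gene zfp-3 (761), the heparan sulfate sulfotransferase gene hst-2 (709), and hsp-3 (699), which encodes a chaperone of the endoplasmic reticulum.

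Further down came eef-1A.2, for translation elongation factor 1A (637), epn-1, for the endocytic adaptor epsin (623), and epg-7, for an autophagy scaffold (586). Next were vha-12, for a subunit of the vacuolar proton pump (585), asb-2, for a subunit of ATP synthase (522), and dpy-23, for a subunit of the AP-2 clathrin adaptor (510). F02C12.3 (684), pkhm-2 (647), F17E5.2 (607), F16B12.6 (586), sym-4 (542), C14A11.9 (534) and the pair C27C12.1 and C27C12.4 (543) complete the 20 highest. Of these 20 peaks, 3 held the E2F consensus, at klp-13, F16B12.6 and dpy-23, and none held the recruitment motif core.

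Of the 7 X genes listed for sex determination and dosage compensation, 3 had a peak, and on the autosomes 8 of 15. Over all X genes the share was 7.62%, and a list of 10 or fewer genes says little against it. Over all autosomal genes the share was 16.3%. At ceh-39, a homeobox gene that signals X number, the score was 350.0 (103.7 in replicate 1, 242 in replicate 2). At sdc-1, a zinc finger gene needed for dosage compensation, it was 282 (58.0 and 219), and both peaks held the E2F consensus shown above. At sdc-2, which directs the complex to X, it was 162 without a match in the list of replicate 2 within 100 bp, and without the consensus. The switch gene xol-1 and tra-4 were unbound, with scores of 40.6 and 44.7 in the relaxed pooled list, and so were sex-1 and fox-1.

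Lists of housekeeping genes had few members on X, too few to set against the 7.62% of all X genes. Autosomal counts are given beside them, where 16.3% of all genes were bound. Of 81 cytosolic ribosomal protein genes only 2 are on X, rpl-11.2, which was bound, and rpl-25.1, which was not, whereas 68 of 79 autosomal ones were bound. Both vha-12 and vha-15 (383) were bound among 3 X genes of the vacuolar proton pump, and vha-20 was not (autosomes, 8 of 17). Of 5 X chaperone genes, hsp-3 and dnj-14 (461) were bound, and dnj-7 and hsp-25 were not (autosomes, 26 of 54). In the Rab family rab-14 (109) was bound of 3 X genes, and rab-6.2 and rab-37 were not (autosomes, 2 of 17). The proteasome, mitochondrial ribosome, aminoacyl-tRNA synthetase and DREAM subunit lists have no member on X. The cell cycle list has 1, the unbound kinase gene cdk-4 (relaxed score 57.5).

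Chromatin, timing, muscle and nuclear hormone receptor lists each had 1 to 3 X genes bound, beside 7.62% of all X genes and 16.3% of all autosomal genes. Of 13 X genes for chromatin and synMuv proteins (repressors of ectopic vulval fate), 2 were bound, the linker histone gene his-24 (167) and the cohesin gene coh-1 (156), against 17 of 29 autosomal ones. The synMuv genes lin-15A and lin-15B had no summit in their promoter windows, but a peak with the E2F consensus (325) lay at -948 bp from lin-15B. Of 6 heterochronic genes, which time larval stages, lin-14 had a promoter peak (95.9), and on the autosomes 2 of 11 were bound. Muscle genes had 2 of 8 bound, unc-115 (149) and the actin gene act-4 (94.7), and myo-2 and unc-27 were not (autosomes, 3 of 21). Of 23 nuclear hormone receptor genes 3 were bound, led by nhr-1 (245) and nhr-32 (115.9), and nhr-3 and nhr-14 were not (autosomes, 26 of 246).

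A gene without a peak in its promoter window could have one elsewhere, inside the gene or within 1000 bp of its start. This was counted after the values were seen, and held for 122 of the 2523 unbound X genes (4.84%). Of the 5 unbound heterochronic genes 4 had such a peak. They lay in introns of daf-12 (122) and kin-20 (165 and 136), in an exon of alg-1 (74.8) and upstream of ain-1 (370 and 117), and hbl-1 had none. Of the 11 unbound chromatin genes lin-15B and sir-2.2 (223) had one, as did 5 of 20 nuclear hormone receptor genes, nhr-3 (98.4) among them, and none of 6 muscle genes.

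Neuronal and differentiation lists, which hold many X genes, had none bound in the promoter window, beside 7.62% of all X genes. This was so for 32 neuropeptide genes (such as flp-2 and flp-3), 24 ligand-gated channel genes (acr-2, acr-3), 23 genes of axon guidance and synapses (unc-1, unc-2) and 10 potassium channel genes (twk-16, twk-17). It was also so for 27 collagens (col-9, col-19), 17 cell fate factors (unc-3, vab-3), 9 T-box or helix-loop-helix factors (hlh-8, hlh-13), 13 vulval and Wnt genes (lin-2, lin-18), 4 guanylyl cyclases (gcy-9, gcy-11), 5 yolk protein genes (vit-1, vit-2) and 2 insulin-like genes (ins-9, ins-39). In the ceh homeobox family ceh-39 was the 1 bound gene of 18, and ceh-1 and ceh-14 were unbound. Inside or within 1000 bp of the start, unc-84 (405 and 65.5), egl-17 (120), col-185 (71.8) and ins-39 (521) had a peak. The peaks at egl-17 and col-185 lay within 200 bp of a tRNA gene. Those at egl-17 and ins-39 held the recruitment motif core. On the autosomes, where 16.3% of all genes were bound, the counts were 2 of 70 neuropeptide genes, 0 of 53 ligand-gated channel genes, 4 of 30 axon and synapse genes and 2 of 34 potassium channel genes. They were 5 of 129 collagens, 4 of 35 fate factors, 3 of 35 T-box or helix-loop-helix factors and 2 of 27 guanylyl cyclases. No insulin-like gene (of 36) or yolk gene (of 1) was bound there, but 5 of 45 ceh genes and 4 of 19 vulval and Wnt genes were, the latter above the share of all autosomal genes. At 7.62% a single list of this size would hold few bound X genes or none, so each of these counts alone says little. Some lists share members, and none was tested.

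X summits were often beside tRNA genes. Within 200 bp of one lay 59 of 450 X summits (13.1%), against 153 of 4385 (3.49%), a difference of 9.62 percentage points (interval 6.75 to 13.1). X carries 276 of the 612 tRNA genes of the nuclear chromosomes. A summit lay this close to 65 of them (23.6%), against 161 of 336 (47.9%) on the autosomes and 36.9% over all chromosomes. X minus autosomes was -24.4 percentage points (interval -31.4 to -16.8), and all 5 autosomes had higher shares (34.6% to 64.1%). So a larger share of X peaks lay at tRNA genes and a smaller share of X tRNA genes had a peak.

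These peaks were low and mostly outside promoter windows. Of the 59, 35 were intergenic, 21 intronic and 3 in promoter windows, with median scores of 93.1, 86.6 and 251. The highest (419) lay 124 bp from a tRNA gene in the window shared by C28G1.2 and sec-15, which were named after their values were seen. Leaving out summits near tRNA genes, an alternative chosen after the data were seen, the promoter difference of -4.08 points had an interval from -9.21 to 1.09. The intergenic difference remained at 11.1 (6.26 to 16.2), and the intron difference became -5.10 (-8.31 to -1.23). Of the other small RNA classes, 2 X summits were near a snoRNA gene and none was near any of the 74 X-linked miRNA genes.

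No difference in the E2F consensus was detectable between X and autosomal summits. Within 100 bp of the summit it was found at 70 of 450 X peaks (15.6%, exact interval 12.3 to 19.2) and 17.7% of autosomal peaks. The difference was -2.19 points (interval -5.45 to 1.62). In windows of the same width 500 bp to the left and right of the X summits the shares were 4.67% and 4.44%, and 5.75% of such windows at all X gene starts (centred 150 bp upstream) held it. The same letters read backwards were found at 9.56% of X summits. X promoter peaks with the consensus had a median score of 242 (n = 31) and those without it 147 (n = 158).

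The CHR element was less frequent at X summits than beside them. It was found at 143 X peaks (31.8%), against 55.3% and 52.4% in the flanks and 46.1% at autosomal summits. X minus autosomes was -14.3 points (interval -18.7 to -9.66), and in promoter peaks -21.8 (-28.4 to -14.5). In introns (-10.3, interval -19.9 to 1.42) and intergenic sequence (-5.03, -11.98 to 2.53) the interval took in 0. Autosomal flanks held the element at 54.1% and 52.7%, also above their summits. The element is rich in A and T, and X summits were rich in G and C, with a median of 46.8% over the 201 bp window against 41.8% on the autosomes. The part of base composition in this difference was not tested.

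The core of the recruitment motif was concentrated at X summits. The search for it was added during the work, from knowledge of the motif, and no plan named it. It was found at 20 of 450 X peaks (4.44%, exact interval 2.74 to 6.78) and at 9 of 4385 autosomal peaks (0.205%, 0.0939 to 0.389). X minus autosomes was 4.24 points (interval 2.68 to 6.56). In each flank of the X summits 1 of 450 windows held it (0.222%), and at all X gene starts 2 of 2731 (0.0732%). Its letters read backwards occurred at 2 X and 14 autosomal summits. Of the 20 peaks 13 were intergenic, 4 intronic, 2 in promoter windows and 1 exonic.

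Many X peaks with the core were among the strongest on X, though some were weak, and none on the autosomes was among the strongest there. On X their median score was 423 (quartiles 151 and 680), against 127 for other X peaks. Of the 10 highest X peaks outside promoter windows 5 held the core, as did 10 of the highest 20. The lowest X peak with the core scored 79.4 and shares its interval with the peak in Y41G9A.17 that scored 612. The highest autosomal peak with the core scored 201.1, a little above the median of all autosomal peaks (188). The intergenic peak near W02H3.3, with 2 copies, scored 1062 (468 in replicate 1, 589 in replicate 2). The peak at -4901 bp from xol-1, also with 2 copies, scored 755 (327 and 432). The intronic peak in mom-1, a Wnt pathway gene, had 2 copies and a score of 666 (287 and 373). Of the 6 peaks printed above, 4 held 2 copies within 100 bp of the summit.

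Most copies of the core on X had no member beside them. X holds 81 copies (4.57 per megabase) and the autosomes 233 (2.82 per megabase). Of the X copies 24 (29.6%) lay near an X summit of the IDR set, counted where the whole copy was within 100 bp, and 28 (34.6%) near one of the relaxed pooled list. On the autosomes these shares were 3.86% and 9.01%. The letters ATC, chosen after the matches were seen, stood directly before the core in 13 of the 81 X copies and in 2 of the 233 autosomal ones. Of the 20 X peaks with the core, 10 had such a copy, and none of the 9 autosomal peaks did. The match is a description of letters, and whether the dosage compensation complex was at these sites was not measured.

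Not every strong intergenic peak held the core. The highest, at chrX:6804882-6805292 and at -1695 bp from the start of atg-2, scored 1805 with 636 in replicate 1 and 1183 in replicate 2. The next, chrX:4222662-4223270 near W01H2.2, scored 1449 (460.3 and 964). The peak near K02D3.1, chrX:13700593-13701102, scored 949 (410.3 and 523). None of these 3 held the core or the E2F consensus. The peak near F20B6.9, chrX:4209035-4209471, held both (score 850, with 390 and 458). So did the peak near W02H3.3, where the consensus overlaps the core. Among intronic peaks, mom-1 was followed by Y41G9A.17 (612, with the core), rme-4 (521), unc-84, a nuclear envelope gene (405), and F09A5.3 (369). The 4 exonic members lay in pks-1 (599, with the core), alg-1 (74.8), F52H2.5 (65.8) and rgs-6 (63.3), named after their values were seen.

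Peaks lay evenly along X. In 20 bins of 5% of the chromosome's length X had 17 to 35 peaks, with a coefficient of variation of 0.207, against 0.243 to 0.431 on single autosomes. X had the lowest density of the 6 chromosomes in 15 of 20 bins. The densest bin, from 75% to 80% of the length, reached 39.5 peaks per megabase. The left, middle and right parts of equal length held 140, 145 and 165 peaks, and 7.92%, 7.07% and 7.92% of their genes were bound. Intergenic peaks numbered 51, 53 and 81, and peaks with the core 11, 5 and 4. Across the 20 bins the number of peaks and of genes gave Pearson's r of 0.280 and Spearman's rho of 0.360, as a description.

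**Figure D4:**
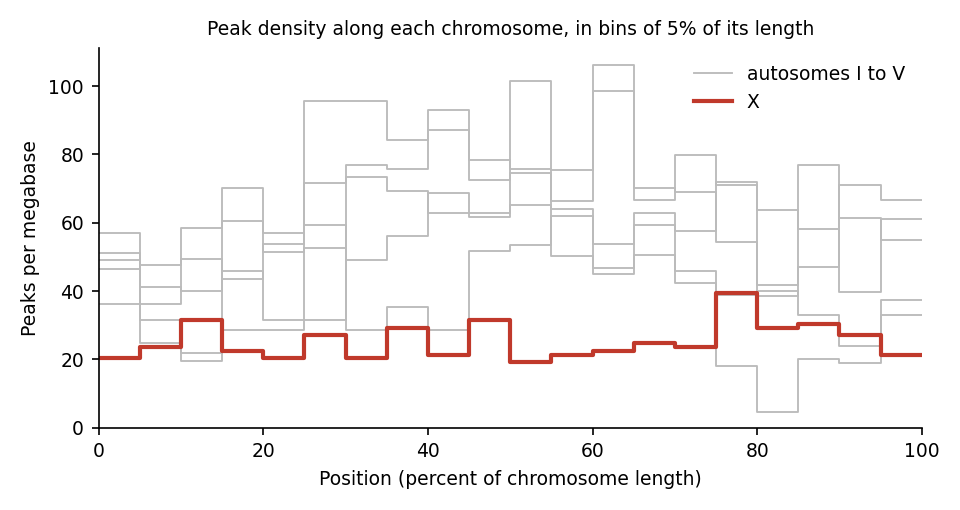
Peaks per megabase in bins of 5% of chromosome length (x axis, percent of length), for X (red) and each autosome (grey). X runs between 19.2 and 39.5 and is below every autosome in 15 of the 20 bins.

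Spacing was wide with a few clusters. The median gap between neighbouring X summits was 25.6 kb, against 8.26 to 13.7 kb on single autosomes. Gap ends are named by the nearest gene start. The longest gap, 273 kb with 41 gene starts inside, ran from uggt-1 to mec-7, a touch neuron tubulin gene. The summit at the mec-7 end lay at a tRNA gene in an intron of deg-1, and mec-7 was unbound. The next ran from dlg-1 to cat-1 (233 kb), Y73B3A.4 to M02E1.3 (219 kb), fbxb-58 to an unnamed gene (211 kb) and sid-3 to F10D7.5 (208 kb). At cat-1 the summit lay in an intron, 14 bp from a tRNA gene. Members with the most others within 50 kb had 7, and the 3 highest-scoring of these, at eef-1A.2 (637), ZK154.5 (150.2) and ZK154.4 (139), belong to 1 cluster just right of the longest gap.

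Both replicates held nearly all X members, which the choice of the IDR set by reproducibility between these same replicates favours. Of 450, 435 (96.7%) were matched within 100 bp by a summit of replicate 1, and 444 (98.7%) by one of replicate 2, against 98.2% and 99.6% of autosomal peaks. Within the top 4835 peaks of both replicates lay 351 X members (78%), against 83.9% of autosomal ones. Over the 429 X members matched in both, the rank correlation of scores (Spearman's rho) was 0.833, and Pearson's r after taking log10 was 0.856. On the autosomes rho was 0.926, over a wider range of scores. These correlations are across peaks of shared libraries. The largest rank differences among X promoter peaks were at sorf-1, erd-2.1, gcc-1, nfya-1 and vps-45, all of which ranked higher in replicate 2. At sorf-1 the score was 7.84 in replicate 1 and 57.7 in replicate 2, and at erd-2.1 it was 8.76 and 81.6.

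The ratio of replicate 2 to replicate 1 scores was lower at peaks with the core than at promoter peaks. This comparison was added after the data were seen. The log2 ratio of the score in replicate 2 to that in replicate 1 had a median of 0.44 over 19 matched peaks with the core and 1.01 over 179 X promoter peaks without it. Among X peaks ranked up to 1100, the 10 with the core ranged from 0.21 to 0.53, with a median of 0.37. The 20 promoter peaks of these ranks ran from 0.18 to 1.43 (median 0.83), and the 10 intronic or intergenic ones without the core from 0.25 to 1.59 (median 0.50). All 3 ranges overlapped. Autosomal peaks of ranks 300 to 1100 had a median of 0.92, and 0.86 for intronic and intergenic ones. Score scales differ between the lists, so only the contrast between kinds of peak can be read, and it was not tested. A lower ratio is not closer agreement. By rank within each list, all peaks with the core up to rank 1100 stood lower in replicate 2, the highest at 424 and 632. Promoter peaks of these ranks went both ways.

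**Figure D5:**
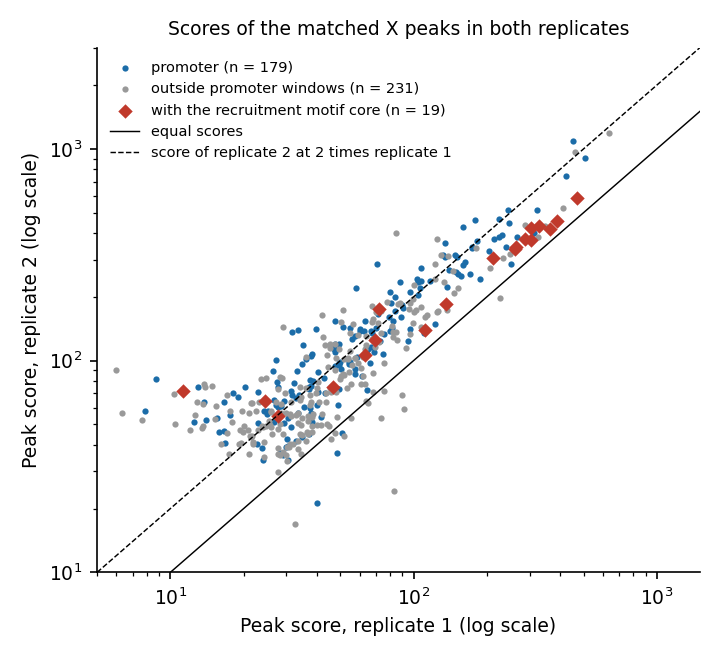
Score in replicate 1 (x axis) and replicate 2 (y axis), both on log scales, of the 429 X peaks matched in both lists; red diamonds hold the recruitment motif core. Strong peaks with the core lie nearer the line of equal scores than promoter peaks (blue) do. Score scales differ between the lists, so nearness to this line is not closer agreement.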

How the data were processed

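Peak lists of EFL-1 ChIP-seq from 2 biological replicates were used. Per the text deposited with the samples, the authors called a relaxed list for each replicate and for pooled reads, each with a control, and derived the IDR set from them. The IDR set equalled the top 4835 peaks of the pooled list. The peak score is as deposited by the authors, on an unstated scale. The sources used here name no aligner or peak caller, and the control was not analysed here. Genes are those of Ensembl release 115 and sequence is RefSeq WBcel235, which is ce11; ce10 lists gave counts only. A gene has 1 start, its outermost 5′ end. Annotated starts can be trans-splice sites away from the promoter.

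Shares have exact (Clopper-Pearson) intervals, differences of shares Newcombe intervals and densities exact conditional intervals. A difference was called where the interval left out 0 (ratios: 1). No enrichment test was run, since peaks and genes are not replicates. For each replicate list its top 4835 peaks stood in for leaving out the other replicate. Programs were Python 3.11.15, pandas 2.3.3, scipy 1.17.1 and statsmodels 0.14.6, checked on simulated data.

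The members, gene lists and rules were chosen with earlier results of these data known. Named genes are those of the 20 highest X promoter peaks, the hosts or nearest genes of the 5 highest intronic and intergenic peaks, per list the 2 highest bound and first 2 unbound X members, the 5 largest rank differences, the ends of the 5 longest gaps and the 3 most crowded members. Genes beside peaks with the recruitment motif core and other genes were named after their values were seen.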

Additional observations from a re-analysis of the deposited data

How the results depend on the processing

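Of 69 alternative settings over all results, 58 kept the direction and the side of the threshold or, for the score ranking, stayed within the spread of the replicate lists. Fewer genes were bound on X under each setting tried, with differences from -14.1 points (whole relaxed list) to -6.82 (nearest start). Density was lower on X, with ratios from 0.328 among higher-scoring peaks to 0.648 per gene. Intergenic differences ran from 10.5 to 19.1 points and tRNA gene differences from -24.7 to -12.8. The promoter difference ran from -14.96 to -4.08, and its interval took in 0 only without summits near tRNA genes (-4.08), a setting added after the data were seen. The intron difference left out 0 in the whole relaxed list (-6.30), without summits near structural RNA genes (-4.28) or tRNA genes (-5.10), and without 1 replicate (-4.42 and -4.14). The E2F difference changed sign among higher-scoring peaks (0.099, interval -5.98 to 7.40). The median percentile of X peaks in the score ranking, 38.5, was 31.0 among higher-scoring peaks, 48.8 in the whole relaxed list, 30.2 among promoter peaks, and 35.2 and 39.5 without 1 replicate. The cause was not tested. The recruitment motif difference ran from 0.64 points in the whole relaxed list to 8.76 among higher-scoring peaks. Depth is unknown, so how many weak X sites were missed cannot be said. No paired analysis was possible because the replicates form 1 group.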

Other observations

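All 8-letter words at summits were counted after the recruitment motif core had been searched. Of 32857 words found within 100 bp of summits, counted on both strands, GCGCAGGG ranked 3 by the difference between the shares of X and autosomal summits. The words above it were ACACACAC (44 X summits, 9.78%, against 5.36%) and ACACTCAC (27, or 6%, against 1.69%). Ranked words can overlap, so their ranks are not independent. CCTGCGCG, which overlaps the core read on the other strand (CCCTGCGC), ranked 5 (19 X summits, 4.22%, against 0.274%). Another of the first 10 was AGTGGTTA, at 21 X summits, of which 19 were within 200 bp of a tRNA gene.

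X summits stood out from their surroundings in base composition more than autosomal summits did. The median share of G and C was 46.8% at X summits and 34.3% and 33.8% in windows 500 bp to the left and right. At autosomal summits it was 41.8%, against 35.3% and 35.8%. Windows centred 150 bp upstream of the starts of bound genes had 40.8% on X and 34.8% on the autosomes, and those of unbound genes 34.8% and 33.3%.

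Words that differ from the core in 1 letter were also more frequent at summits than beside them, both on X and on the autosomes together. They were found at 14.7% of X summits (exact interval 11.5 to 18.3) and 2.67% and 1.56% of the flanks. On the autosomes 9.46% of summits (8.61 to 10.4) and 2.65% and 2.94% of the flanks held one. The 3 highest X peaks without the full core outside promoter windows differed here: the one near atg-2 had no such word, and those near W01H2.2 and K02D3.1 had one.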
